A study of Homo sapiens with 18 samples.

Results

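The transcripts of 10 genes that carry out RNA silencing and mRNA decay were followed after transfection of short RNAs into cancer cell lines. The genes were chosen by symbol from 58395 measured genes: the silencing scaffolds TNRC6A, TNRC6B and TNRC6C, the decapping genes DCP2, DCP1A, DCP1B, EDC4 and DDX6, the exonuclease gene XRN1 and the deadenylase scaffold gene CNOT1. All 10 passed the filter on low values in every comparison. The 18 libraries formed 6 groups of 3 replicates, lettered A to C: PC3, a human prostate cancer line, and HeyA8, a human ovarian cancer line, each labelled wild type (wt) and each given sCAG, sG5C or sNT8 at 10 nM with the reagent RNAiMax for 48 h before total RNA was taken. The series title names DISE, a form of cell death that such short RNAs set off in cancer cells, and each deposited table sets sCAG or sG5C against sNT8. Every group, sNT8 included, was transfected, and no untransfected cells were analysed here. The sG5C libraries are titled Mxy, and their treatment label was followed.

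A short RNA loaded into an Argonaute protein pairs with a messenger RNA through its seed, and the Argonaute binds a TNRC6 protein, also called GW182. TNRC6 proteins recruit the CCR4-NOT complex, which is built on CNOT1 and shortens the poly(A) tail. The helicase DDX6 links CCR4-NOT to decapping, DCP2 removes the 5′ cap with the help of DCP1A or DCP1B and EDC4, and XRN1 degrades the uncapped RNA from its 5′ end.

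Each library held between 31232377 and 41384838 reads in genes, and reads fell in 31659 to 36188 genes. The labels do not say that replicates were separate cultures, so p-values measure the spread between these libraries. The ovarian transcription factor gene PAX8 had 136 to 478 CPM (reads scaled to a common library total) in HeyA8 libraries, whereas MUC16, FOLR1 and WFDC2 did not exceed 0.339 CPM there. The prostate gene HOXB13 had 35.7 to 229 CPM in PC3 libraries, whereas KLK3 had no read. In PC3, the 8 prostate markers summed to 217 to 236 CPM with sCAG, 52.2 to 63.5 CPM with sG5C and 224 to 239 CPM with sNT8, and in HeyA8 the 6 ovarian cancer markers summed to 442 to 511 CPM with sCAG, 145 to 158 CPM with sG5C and 377 to 403 CPM with sNT8. The 5 leukocyte markers summed to at most 2.01 CPM in any library. Of the 4 endothelial markers, CDH5 reached 78.2 CPM in HeyA8, and PECAM1 and KDR reached 39.2 and 118 CPM in PC3. Summed endothelial markers were 119 to 150 CPM in PC3 sCAG, 60.2 to 72.4 CPM in PC3 sG5C and 86.2 to 101 CPM in PC3 sNT8 libraries. In HeyA8 they were 20.4 to 21.9 CPM with sCAG, 59.6 to 61.1 CPM with sG5C and 76.7 to 83.8 CPM with sNT8. The part of these markers in the results below was not tested.

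The 10 genes differ in the sequence features that the names of the short RNAs point to. The sources used here do not give the sequences of the short RNAs. A CAG or CTG run of 6 or more units was looked for in 1 GENCODE 29 transcript per gene, on its sense strand. For sG5C the name was read as a seed of G repeated before a C, whose complement is GCCCCC, and that reading is a guess. A CAG run was found in 3 of the 10 genes, against 0.814% of 19659 genes, and a CTG run in none of the 10, against 0.549%. DCP1B had 9 units and TNRC6B 8, read in the frame CAG, which encodes glutamine, and EDC4 had 6, read in the frame AGC, which encodes serine. TNRC6A, named for trinucleotide repeats, had no run over 4 units in its transcript. The longest CTG run of the 10 genes had 4 units and lay in the coding sequence of TNRC6C. The complement of CAG is CTG, so the CAG runs carry the letters of the name sCAG and not its complement. Whether any run is a target of sCAG was not tested. The coding stretches with the CAG runs are shown as a description, with the run in capitals (for TNRC6A, 1 of 3 runs of 4 units).
DCP1B, transcript bases 813 to 881: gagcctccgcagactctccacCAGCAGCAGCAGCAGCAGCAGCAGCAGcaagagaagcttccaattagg
TNRC6B, transcript bases 4151 to 4216: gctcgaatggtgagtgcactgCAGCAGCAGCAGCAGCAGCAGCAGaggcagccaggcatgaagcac
EDC4, transcript bases 2075 to 2134: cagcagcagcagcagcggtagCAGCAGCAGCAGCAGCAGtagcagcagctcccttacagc
TNRC6A, transcript bases 421 to 474: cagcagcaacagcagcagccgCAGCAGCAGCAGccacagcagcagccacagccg

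The letters GCCCCC stood in the 3′ UTR of 4 of the 10 genes, against 25.9% of 18919 genes, whose median 3′ UTR is 846 bases. TNRC6B had 4 matches in 12566 bases, DCP1A 2 in 4152, TNRC6C 1 in 3990 and EDC4 1 in 355. The 3′ UTRs of DCP2, with 7486 bases, XRN1, with 4904, DDX6, with 4339, TNRC6A, with 2420, CNOT1, with 1007, and DCP1B, with 152, held no match. Outside the 3′ UTR, TNRC6C had 7 matches in coding sequence, TNRC6B 5, EDC4 3, and XRN1 and CNOT1 1 each. DCP1A had 1 in its 5′ UTR. A match is a description of letters only. For each gene matched in the 3′ UTR the first match there is shown with 12 bases on either side, and the match is in capitals.
TNRC6B 3′ UTR: ctgcttccagcaGCCCCCactgaccgctct
DCP1A 3′ UTR: aagttcagcccgGCCCCCaccgcttccccc
TNRC6C 3′ UTR: cgccacaggctgGCCCCCccccacccatgg
EDC4 3′ UTR: ttacctgctcagGCCCCCatctctggggtg

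Levels of different genes were compared per length, as TMM-scaled RPKM over all 18 libraries (TMM is a scaling factor between libraries). With sNT8, CNOT1 was the highest of the 10 in both lines, at 64.9 ± 1.8 RPKM in PC3 and 36.9 ± 1.0 RPKM in HeyA8 (SD, n = 3 each, as for all values below). DDX6 was next, at 33.8 ± 1.2 RPKM in PC3 and 32.4 ± 0.7 RPKM in HeyA8. In PC3 sNT8 libraries the order went on with TNRC6A at 18.5, TNRC6B at 10.9, DCP1A at 9.94, XRN1 at 8.32, EDC4 at 7.52, DCP2 at 4.21, TNRC6C at 2.58 and DCP1B at 1.10 RPKM. Of neighbours in that order, TNRC6B and DCP1A overlapped between libraries, as did XRN1 and EDC4. In HeyA8 sNT8 libraries it went on with XRN1 at 20.6, TNRC6A at 13.7, TNRC6B at 11.5, DCP1B at 11.0, DCP1A at 10.4, EDC4 at 8.05, DCP2 at 7.12 and TNRC6C at 2.52 RPKM. There DCP1B overlapped with both TNRC6B and DCP1A, which did not overlap with each other.

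**Figure D1:**
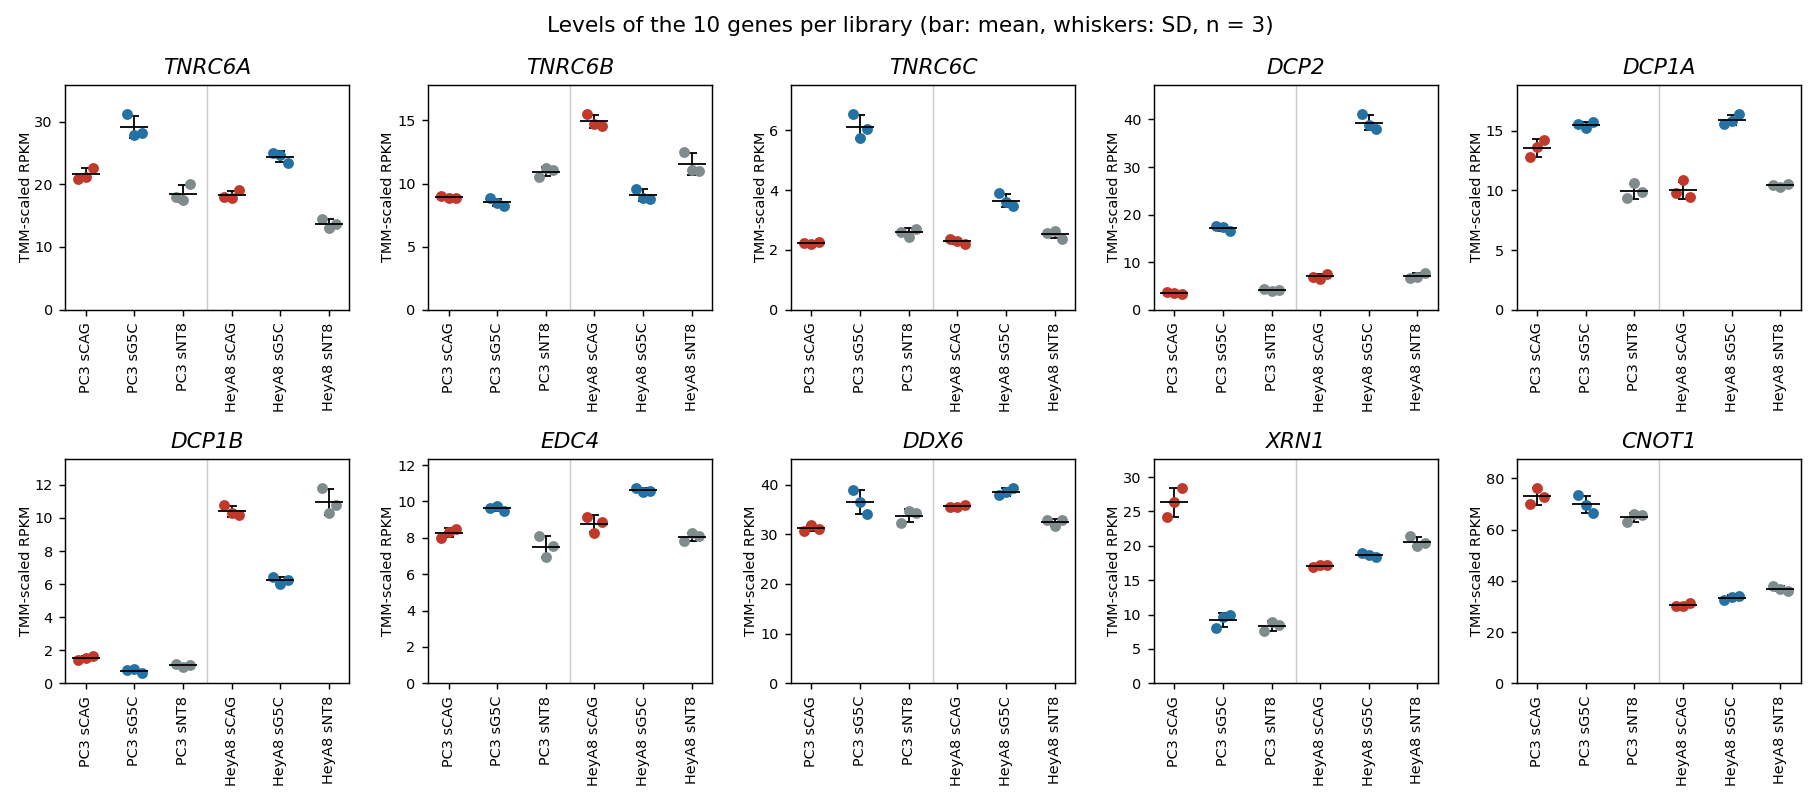
TMM-scaled RPKM (vertical axis, from 0) of each gene in the 18 libraries, by group; points are libraries, bars means and whiskers SD (n = 3). DCP2 stands at 17.2 RPKM in PC3 sG5C and 39.3 RPKM in HeyA8 sG5C libraries, XRN1 at 26.3 RPKM in PC3 sCAG libraries, and DCP1B under 2 RPKM in all PC3 libraries.

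The lines themselves differed at 5 of the 10 genes with sNT8. P-values, here and below, were adjusted by Benjamini-Hochberg across every gene in the fit, and a gene was called at an adjusted p below 0.05. By edgeR's quasi-likelihood test on whole reads recovered from the deposited values, 2 were higher and 3 lower in PC3, where 71.3% of 27105 genes were called (38.5% higher and 32.7% lower). DCP1B, an activator of DCP2, was 9.98-fold lower in PC3 (log2 fold change -3.32 ± 0.09, SE; adjusted p = 4.20e-32), at 1.10 ± 0.09 RPKM in PC3 and 11.0 ± 0.8 RPKM in HeyA8. XRN1 was 2.48-fold lower in PC3 (log2 -1.31) and DCP2 1.69-fold lower (log2 -0.76). CNOT1 was 1.76-fold higher in PC3 (log2 0.81) and TNRC6A 1.35-fold higher (log2 0.44). Differences of preparation between the lines cannot be told apart from the lines. When libraries were scaled by their totals alone, the median of all genes moved by 0.25 (log2) in favour of PC3 and all 10 genes were called, 7 higher and 3 lower, with the log2 differences of TNRC6B, DCP1A and EDC4 at 0.18, 0.18 and 0.16 in place of -0.08, -0.07 and -0.10. Since 18 libraries share 1 fit, TNRC6B was also called when HeyA8 sG5C A (adjusted p = 0.0295) or HeyA8 sCAG A (0.0465), B (0.0463) or C (0.0452) was left out. EDC4 was called without HeyA8 sG5C A (0.0320), HeyA8 sCAG A (0.0417), B (0.0373) or C (0.0414), or PC3 sNT8 A (0.0329).

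The comparisons with sNT8 were fitted with limma on log2 of the deposited normalized count plus 1, within 1 table each. In bulk RNA, fewer cells carrying a transcript and less of it per cell cannot be told apart. After sG5C, all 10 genes were called in HeyA8, 6 higher and 4 lower, where 52.5% of genes were called (24.6% higher and 27.9% lower). In PC3 sG5C cells, 5 were higher and 2 lower, where 57.9% of genes were called (28.6% higher and 29.3% lower). After sCAG, 3 were higher and 3 lower in HeyA8, where 59.3% of genes were called (29.3% higher and 30% lower). In PC3 sCAG cells, 5 were higher and 4 lower, where 50.5% of genes were called (27.4% higher and 23.1% lower). The median log2 fold change of the 10 genes was 0.34 in HeyA8 sG5C, 0.25 in PC3 sG5C, -0.08 in HeyA8 sCAG and 0.11 in PC3 sCAG cells, beside medians of all genes of 0.010, -0.0080, 0.0070 and -0.0029 in that order. Scaling by library totals instead shifted the all-gene median by 0.13 in HeyA8 sG5C, -0.06 in PC3 sG5C, -0.12 in HeyA8 sCAG and -0.17 in PC3 sCAG cells. The 10 genes then gave 6 higher and 2 lower in HeyA8 sG5C, 5 and 2 in PC3 sG5C, 2 and 6 in HeyA8 sCAG, and 2 and 4 in PC3 sCAG cells, so small changes below depend on the scaling.

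**Figure D2:**
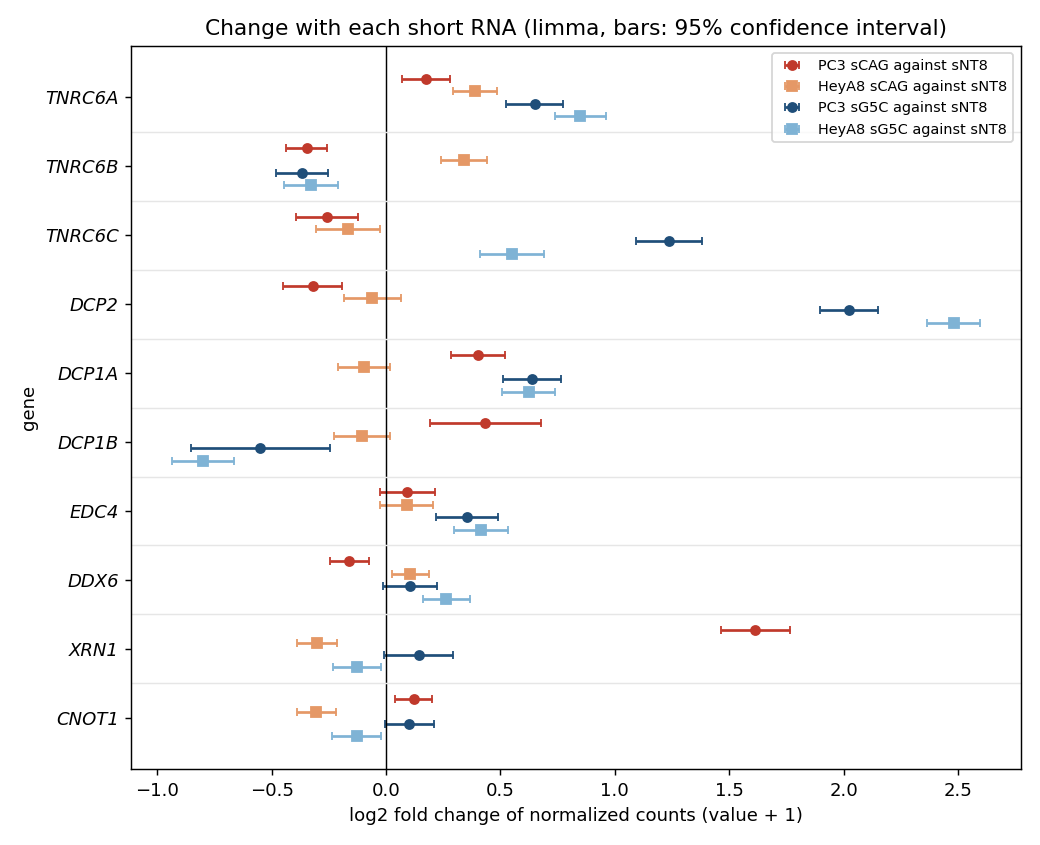
Log2 fold change against sNT8 (horizontal axis) of each gene after sCAG and sG5C in PC3 (circles) and HeyA8 (squares), with 95% confidence intervals from limma. DCP2 lies at 2.03 in PC3 and 2.48 in HeyA8 after sG5C, and XRN1 at 1.61 in PC3 after sCAG; the other values lie between -0.80 and 1.24.

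TNRC6A (ENSG00000090905, chromosome 16, 24610209 to 24827632, plus strand, hg38), a scaffold that binds Argonaute and recruits deadenylases, was higher in all 4 comparisons. It had 11292, 11462 and 10761 normalized counts in HeyA8 sG5C libraries A to C, against 6587, 5878 and 6154 in their sNT8 libraries, and rose 1.80-fold (log2 0.85 ± 0.05, SE; limma adjusted p = 4.59e-14). In PC3 it had 14856, 13144 and 13300 with sG5C, against 8546, 8313 and 9479 with sNT8, and rose 1.57-fold (log2 0.65 ± 0.06; limma adjusted p = 2.65e-10). The groups did not overlap in either line, and PC3 sG5C A was the highest library. After sCAG the rise was smaller, 1.31-fold in HeyA8 (log2 0.39 ± 0.05; limma adjusted p = 6.52e-08) and 1.13-fold in PC3 (log2 0.17 ± 0.05; limma adjusted p = 0.00577). The PC3 value was 0.0018 (adjusted p = 0.978) when libraries were scaled by their totals.

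TNRC6B (ENSG00000100354, chromosome 22, 40044817 to 40335808, plus strand), the paralog with a run of 8 CAG units and 4 GCCCCC matches in its 3′ UTR, fell in 3 comparisons and rose in 1. In HeyA8 sCAG libraries it had 9974, 9482 and 9447 normalized counts, against 8337, 7339 and 7200 in sNT8 libraries, a rise of 1.27-fold (log2 0.34 ± 0.05, SE; limma adjusted p = 1.72e-06). In PC3 sCAG libraries it had 6445, 6296 and 6425, against 7804, 8383 and 8200 in sNT8 libraries, a fall of 1.27-fold (log2 -0.35 ± 0.04; limma adjusted p = 2.48e-07). The groups were apart in both lines and lay in opposite order. After sG5C it fell 1.26-fold in HeyA8 (log2 -0.33; limma adjusted p = 1.50e-05) and 1.29-fold in PC3 (log2 -0.37; limma adjusted p = 1.98e-06).

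TNRC6C (ENSG00000078687, chromosome 17, 77959240 to 78108835, plus strand), the least abundant of the 3 paralogs in every group, had its largest rise in PC3 sG5C cells. It had 2678, 2323 and 2451 normalized counts there, against 1063, 995 and 1098 with sNT8, a rise of 2.36-fold (log2 1.24 ± 0.07, SE; limma adjusted p = 5.83e-15). In HeyA8 sG5C cells it rose 1.46-fold (log2 0.55 ± 0.07; limma adjusted p = 6.38e-08). Every sG5C library lay above every sNT8 library of its line. After sCAG it fell in PC3 (log2 -0.26 ± 0.07, SE; limma adjusted p = 0.00184). In HeyA8 sCAG cells the log2 fold change was -0.17 (limma adjusted p = 0.0363), a call that was lost without sNT8 replicate A (adjusted p = 0.0905) or B (0.155), without sCAG replicate B (0.0594) or C (0.119), with DESeq2 (0.0502) and with no filter (0.0730).

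Summed over the paralogs, TNRC6 reached 43.8 ± 2.4 RPKM in PC3 sG5C libraries, 32.7 ± 1.0 in PC3 sCAG libraries and 32.1 ± 1.5 in PC3 sNT8 libraries. In HeyA8 the sum was 37.1 ± 1.4 RPKM with sG5C, 35.5 ± 0.6 with sCAG and 27.7 ± 1.5 with sNT8. TNRC6A made up 66.6% of the sum with sG5C, 66.0% with sCAG and 57.7% with sNT8 in PC3. In HeyA8 its share was 65.7% with sG5C, 51.6% with sCAG and 49.3% with sNT8. The share of TNRC6B was 19.5%, 27.2% and 34.2% in the same order in PC3, and 24.5%, 42% and 41.6% in HeyA8. TNRC6C made up 14.0% with sG5C and 8.06% with sNT8 in PC3, and 9.82% with sG5C and 9.09% with sNT8 in HeyA8. These sums and shares describe the libraries and were not tested. The shares depend on the exon lengths used, 12924 bases for TNRC6A and 19998 for TNRC6B. Without division by length, TNRC6B was above TNRC6A in HeyA8 sNT8 (231 against 177 CPM) and HeyA8 sCAG libraries (298 against 237 CPM). In the other groups TNRC6A was above TNRC6B in CPM too.

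**Figure D3:**
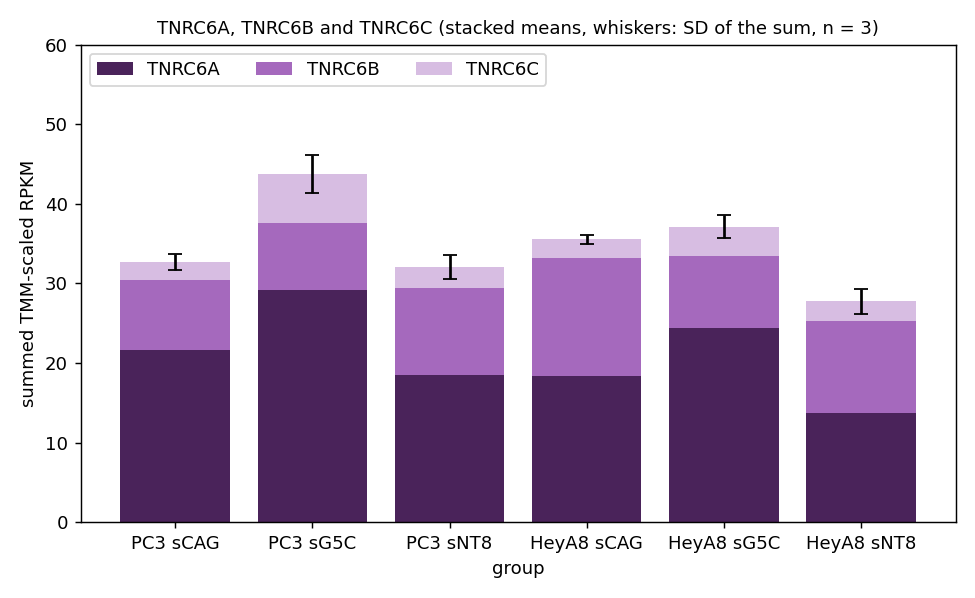
Mean TMM-scaled RPKM of TNRC6A, TNRC6B and TNRC6C, stacked (vertical axis, from 0), in each group; whiskers are the SD of the sum over 3 libraries. The sum is highest in PC3 sG5C, at 43.8 RPKM, and the TNRC6A block is the largest in every group.

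Across the 18 libraries, the protein-coding genes of at least 5 CPM whose log2 level followed TNRC6A most closely were LRRC57 (Pearson r = 0.962), DNAJB9 (0.956) and MTFR1L (0.949). For TNRC6B they were UBE4B (0.950), COL1A1 (0.940) and GLT8D2 (0.939), and for TNRC6C they were KREMEN1 (0.974), AIFM2 (0.955) and DHX40 (0.954). The libraries share line and treatment, so these are descriptions over 6 clusters of 3 points.

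DCP2 (ENSG00000172795, chromosome 5, 112976702 to 113020970, plus strand), the catalytic decapping enzyme, showed the largest change of the 10 genes. It had 14245, 13869 and 13447 normalized counts in HeyA8 sG5C libraries, against 2359, 2404 and 2688 in sNT8 libraries, a rise of 5.58-fold (log2 2.48 ± 0.06, SE; limma adjusted p = 1.31e-24). Every sG5C library lay far above every sNT8 library, and 0.877% of the genes tested had a larger absolute log2 fold change. In PC3 it had 6439, 6328 and 5998 normalized counts with sG5C, against 1620, 1451 and 1539 with sNT8, a rise of 4.07-fold (log2 2.03 ± 0.06; limma adjusted p = 7.45e-21). Again the groups were far apart, and 3.36% of genes had a larger absolute change. Over all alternatives the log2 fold change stayed between 2.45 and 2.61 in HeyA8 and between 1.97 and 2.06 in PC3. By level, DCP2 went up to 39.3 ± 1.6 RPKM in HeyA8 sG5C libraries, against 7.12 ± 0.54 RPKM with sNT8, where it was the 9th of the 10 genes. It thereby had the highest mean of the 10 in HeyA8 sG5C libraries, with DDX6 at 38.5 ± 0.8 RPKM overlapping it.

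With sCAG, DCP2 had 2200, 2086 and 2443 normalized counts in HeyA8, against 2226, 2268 and 2522 with sNT8, and the libraries overlapped (log2 fold change -0.06, 95% confidence interval -0.19 to 0.06; limma adjusted p = 0.403). Scaled by library totals, the HeyA8 value was -0.18 (adjusted p = 0.0228). In PC3 it had 1320, 1259 and 1160 with sCAG, against 1634, 1475 and 1558 with sNT8, a fall of 1.25-fold (log2 -0.32 ± 0.06, SE; limma adjusted p = 0.000134). The PC3 groups did not overlap. No other gene overlaps DCP2 in the files' coordinates, on either strand.

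The activators of DCP2 did not move as one. DCP1A (ENSG00000272886, chromosome 3, 53283428 to 53347610, minus strand) had 3317, 3492 and 3564 normalized counts in HeyA8 sG5C libraries, against 2267, 2209 and 2253 in sNT8 libraries, and rose 1.54-fold (log2 0.62 ± 0.06, SE; limma adjusted p = 1.01e-10). In PC3 sG5C cells it rose 1.56-fold (log2 0.64 ± 0.06; limma adjusted p = 6.41e-10) and in PC3 sCAG cells 1.32-fold (log2 0.40; limma adjusted p = 2.04e-06). Groups were apart in each of these. In HeyA8 sCAG cells its log2 fold change was -0.10 (limma adjusted p = 0.141). Without sCAG replicate B it was -0.15 (adjusted p = 0.0272), and scaled by library totals -0.22 (adjusted p = 0.00120).

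DCP1B (ENSG00000151065, chromosome 12, 1946054 to 2004535, minus strand), with the longest CAG run of the 10, went the other way after sG5C. It had 1035, 997 and 1019 normalized counts in HeyA8 sG5C libraries, against 1921, 1666 and 1736 with sNT8, a fall of 1.74-fold (log2 -0.80 ± 0.07, SE; limma adjusted p = 1.89e-11). In PC3, where it was scarce, it had 138, 141 and 103 with sG5C, against 201, 169 and 186 with sNT8, a fall of 1.46-fold (log2 -0.55 ± 0.15; limma adjusted p = 0.00223). All sG5C libraries lay below all sNT8 libraries. With sCAG in PC3 it had 233, 256 and 271, against 202, 172 and 188 with sNT8, a rise of 1.35-fold (log2 0.43 ± 0.12; limma adjusted p = 0.00323) that was 0.26 (adjusted p = 0.0655) when scaled by library totals. In HeyA8 sCAG cells the log2 fold change was -0.11 (limma adjusted p = 0.128), and -0.23 (adjusted p = 0.000947) when scaled by library totals.

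EDC4 (ENSG00000038358, chromosome 16, 67873023 to 67884503, plus strand), a scaffold of the decapping complex, rose with sG5C and was not called with sCAG. It had 2309, 2335 and 2320 normalized counts in HeyA8 sG5C libraries, against 1701, 1785 and 1742 with sNT8, a rise of 1.33-fold (log2 0.41 ± 0.06, SE; limma adjusted p = 5.45e-07). In PC3 it rose 1.28-fold (log2 0.35 ± 0.07; limma adjusted p = 4.28e-05). The groups did not overlap. With sCAG its log2 fold change was 0.09 in PC3 (95% confidence interval -0.03 to 0.21; limma adjusted p = 0.199) and 0.09 in HeyA8 (-0.02 to 0.21; limma adjusted p = 0.170). Without PC3 sNT8 replicate A the PC3 value was 0.14, with an adjusted p just under the threshold. Of the genes with GCCCCC in the 3′ UTR, EDC4, TNRC6C and DCP1A rose with sG5C in both lines and TNRC6B fell. Of those with none there, DCP2 and TNRC6A rose in both lines, DDX6 rose in HeyA8 and DCP1B fell in both. The values of XRN1 and CNOT1, whose matches lay in coding sequence only, were small. Whether matches bear on these changes was not tested.

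DDX6 (ENSG00000110367, chromosome 11, 118747766 to 118791149, minus strand), the helicase between CCR4-NOT and decapping, moved little. It had 15064, 15800 and 15964 normalized counts in HeyA8 sG5C libraries, against 13231, 12660 and 13100 with sNT8, a rise of 0.26 ± 0.05 (log2, SE; limma adjusted p = 5.65e-05). In PC3 sCAG cells it fell 1.12-fold (log2 -0.16; limma adjusted p = 0.00204), and in PC3 sG5C cells it was 0.10 (adjusted p = 0.121; without sG5C replicate C 0.16, adjusted p = 0.0112). In HeyA8 sCAG cells the log2 value was 0.11 (limma adjusted p = 0.0215). That call was lost without sCAG replicate A (adjusted p = 0.0512), B (0.0505) or C (0.0697), without sNT8 replicate B (0.114), and with library totals (-0.02, adjusted p = 0.691). Its pseudogenes DDX6P1 and DDX6P2 reached at most 0.255 and 2.19 CPM.

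XRN1 (ENSG00000114127, chromosome 3, 142306607 to 142448062, minus strand), the 5′ to 3′ exonuclease that follows decapping, rose after sCAG in PC3. It had 10401, 11259 and 12332 normalized counts in PC3 sCAG libraries, against 3347, 3981 and 3777 in sNT8 libraries, a rise of 3.06-fold (log2 1.61 ± 0.07, SE; limma adjusted p = 2.22e-10). The groups were far apart, and 4.16% of genes had a larger absolute change. In HeyA8 it had 6537, 6644 and 6654 with sCAG, against 8527, 7924 and 8026 with sNT8, a fall of 1.23-fold (log2 -0.30 ± 0.04; limma adjusted p = 7.82e-07). Those groups did not overlap either, and lay in the opposite order. In RPKM, XRN1 was at 26.3 ± 2.1 in PC3 sCAG libraries, 9.23 ± 1.00 in PC3 sG5C libraries and 8.32 ± 0.70 in PC3 sNT8 libraries, and in HeyA8 at 17.1 ± 0.1 with sCAG, 18.7 ± 0.3 with sG5C and 20.6 ± 0.7 with sNT8. Thus the line with the lower level under sNT8 had the higher level under sCAG.

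With sG5C, XRN1 was not separable from sNT8 in PC3, with overlapping libraries (log2 0.14, 95% confidence interval -0.01 to 0.29; limma adjusted p = 0.0990), although it was called without sNT8 replicate B (0.19, adjusted p = 0.0398) and without sG5C replicate A (0.23, adjusted p = 0.00542). In HeyA8 its log2 fold change was -0.13 (limma adjusted p = 0.0419). That call was lost without any sNT8 replicate (adjusted p = 0.171 without A, 0.0563 without B and 0.0772 without C), without sG5C replicate B (0.0510) or C (0.142), with edgeR (0.0561) and with library totals (0.0065, adjusted p = 0.899). A replicate block lost it too.

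CNOT1 (ENSG00000125107, chromosome 16, 58519951 to 58629886, minus strand), the scaffold of CCR4-NOT, had 10559, 10583 and 11021 normalized counts in HeyA8 sCAG libraries, against 13749, 13162 and 12816 with sNT8. It fell 1.23-fold (log2 -0.30 ± 0.04, SE; limma adjusted p = 3.50e-07), with groups that did not overlap. Its other values were small. In PC3 sCAG cells it was 0.12 (limma adjusted p = 0.0145), a call lost with edgeR (0.09, adjusted p = 0.0791), with DESeq2 (0.10, adjusted p = 0.0563), without sNT8 replicate A (0.0636), without sCAG replicate B (0.114) and with library totals (-0.05, adjusted p = 0.212). In HeyA8 sG5C cells it was -0.13 (limma adjusted p = 0.0368), lost without sNT8 replicate A (0.141) or B (0.0868), without sG5C replicate A (0.0753) or C (0.0516) and with library totals (0.0039, adjusted p = 0.930). A replicate block lost that call too. In PC3 sG5C cells CNOT1 was 0.10 (limma adjusted p = 0.103; without sG5C replicate C 0.14, adjusted p = 0.0148).

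The sources used here do not say whether counting used strand, so reads of genes that overlap on opposite strands cannot be told apart. TNRC6A, TNRC6B, TNRC6C, DCP1A, DCP1B, DDX6 and CNOT1 have such a partner by the files' coordinates. SETD6, the partner of CNOT1, had 22.1 to 25.3 CPM in PC3 sNT8 and 2.61 to 3.60 CPM in HeyA8 sNT8 libraries. CACNA1C, within which DCP1B lies in part, had at most 0.824 CPM in HeyA8 sNT8 and 1.31 CPM in HeyA8 sG5C libraries. CACNA1D, a partner of DCP1A, had at most 0.843 CPM in PC3 sNT8 and 0.963 CPM in PC3 sG5C libraries. AC008731.1, a partner of TNRC6A, had at most 0.991 CPM in HeyA8 sNT8 and 1.85 CPM in HeyA8 sG5C libraries. Their part in the results was not tested.

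The direct comparison asked how sCAG differs from sG5C within a line, and was fitted with edgeR on recovered reads. In HeyA8, 2 of the 10 genes were higher and 8 lower with sCAG than with sG5C, where 65.2% of genes were called (31.8% higher and 33.4% lower). In PC3, 2 were higher and 6 lower, where 62.7% were called (31.6% higher and 31.1% lower). DCP2 was 5.84-fold lower with sCAG in HeyA8 (log2 -2.55 ± 0.06, SE; edgeR adjusted p = 1.72e-24) and 5.06-fold lower in PC3 (log2 -2.34 ± 0.06; edgeR adjusted p = 2.23e-25). TNRC6C was 1.65-fold lower in HeyA8 (log2 -0.72) and 2.82-fold lower in PC3 (log2 -1.50). TNRC6A was 1.38-fold lower in HeyA8 and 1.39-fold lower in PC3 (log2 -0.47 in each).

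DCP1B was higher with sCAG than with sG5C in both lines, 1.61-fold in HeyA8 (log2 0.69) and 1.98-fold in PC3 (log2 0.98). TNRC6B was 1.58-fold higher in HeyA8 (log2 0.66; edgeR adjusted p = 4.19e-14), and its log2 difference in PC3 was 0.02 (adjusted p = 0.691). XRN1 was 2.78-fold higher with sCAG in PC3 (log2 1.47 ± 0.08; edgeR adjusted p = 4.56e-11) and 1.13-fold lower in HeyA8 (log2 -0.18; edgeR adjusted p = 0.000314). CNOT1 in PC3 was 0.02 (edgeR adjusted p = 0.709), and -0.10 (adjusted p = 0.0452) when scaled by library totals, which shifted the all-gene median by -0.12 in PC3 and -0.25 in HeyA8.

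Whether the lines responded differently was tested as the difference of the effects over all 18 libraries with edgeR. For sCAG, the effect in PC3 was higher than in HeyA8 for 4 of the 10 genes and lower for 4, where 37.1% of genes were called (22.1% higher and 15.0% lower). XRN1 differed most, by 1.93 ± 0.09 (log2, SE; edgeR adjusted p = 2.30e-18), followed by TNRC6B at -0.67 ± 0.07 (adjusted p = 8.11e-11). DCP1B differed by 0.55, DCP1A by 0.51, CNOT1 by 0.44 and DDX6 by -0.25. The differences of TNRC6A (-0.20, adjusted p = 0.0293) and DCP2 (-0.24, adjusted p = 0.0230) were small, and each was lost when some single libraries were left out. For TNRC6A these were HeyA8 sNT8 B (adjusted p = 0.109) and C (0.0551), HeyA8 sCAG C (0.0541), PC3 sNT8 C (0.166) and PC3 sCAG A (0.0794) and B (0.0719), and DESeq2 gave 0.0611. For DCP2 they were HeyA8 sNT8 A (0.0799) and B (0.0603), HeyA8 sCAG C (0.0583), PC3 sNT8 A (0.0781) and PC3 sCAG C (0.103).

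For sG5C, 3 genes differed upward in PC3 and 1 downward, where 32.8% of genes were called (18.3% higher and 14.6% lower). TNRC6C was 0.71 ± 0.09 higher in its response in PC3 (log2, SE; edgeR adjusted p = 1.75e-08), and DCP2 was -0.44 ± 0.08 (adjusted p = 3.51e-05), a smaller rise in PC3. XRN1 (0.29, adjusted p = 0.0101) and CNOT1 (0.25, adjusted p = 0.00149) differed too, and were at 0.08 (adjusted p = 0.563) and 0.04 (adjusted p = 0.598) with library totals, which shifted the all-gene median by -0.21. With that scaling 1 gene was higher and 5 lower. TNRC6A, at -0.18 (adjusted p = 0.0557), was called without HeyA8 sNT8 A (0.0242), HeyA8 sG5C C (0.0385), PC3 sNT8 A (0.0445) or B (0.0252) or PC3 sG5C A (0.0125), and with no filter (0.0383). DDX6, at -0.14 (adjusted p = 0.0951), was called without PC3 sNT8 A (0.0477) or PC3 sG5C A (0.0190), and DCP1B, at 0.27 (adjusted p = 0.128), without PC3 sG5C C (0.41, adjusted p = 0.0174).

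**Figure D4:**
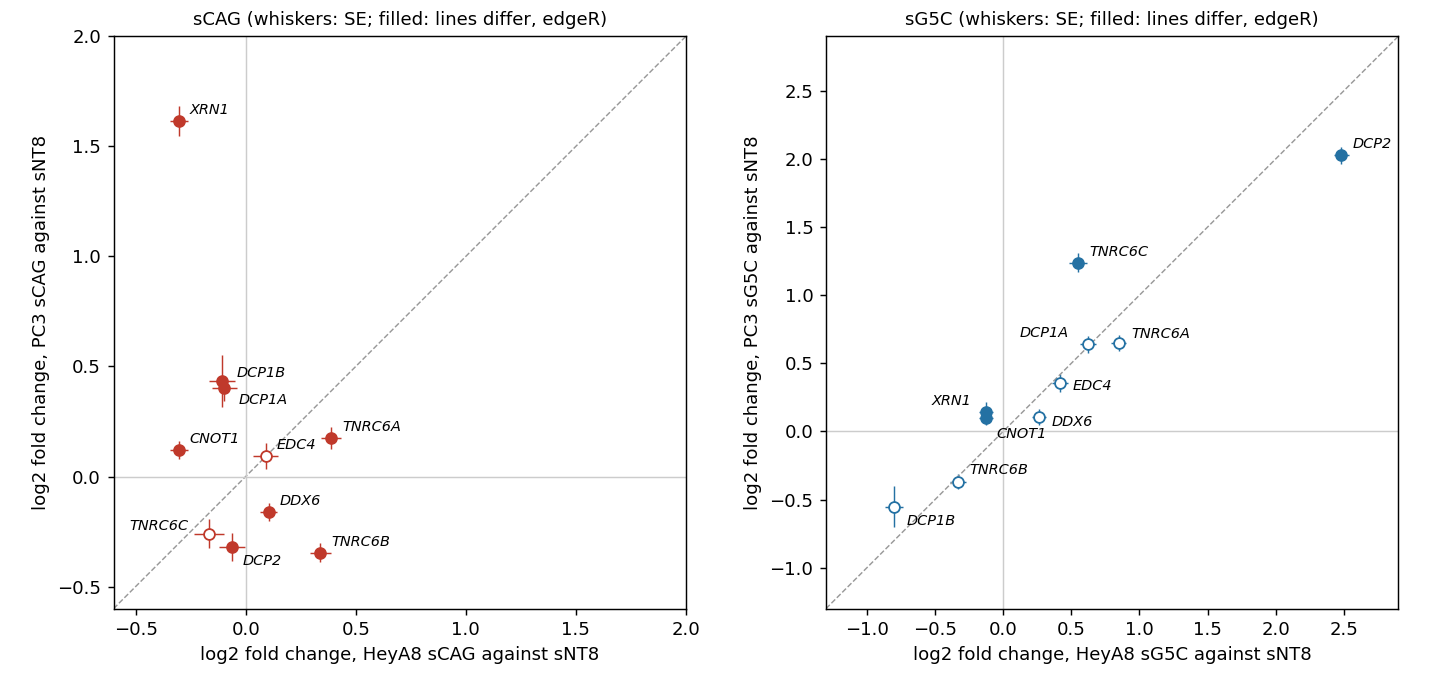
Log2 fold change against sNT8 in PC3 (vertical axis) and HeyA8 (horizontal axis) for sCAG (left) and sG5C (right), with SE; filled points are genes whose effects differ between the lines by edgeR, and the dashed line marks equal effects. XRN1 stands alone after sCAG, at 1.61 in PC3 and -0.30 in HeyA8. After sG5C, DCP2 lies below the far end of the dashed line. TNRC6C lies above that line after sG5C, at 1.24 in PC3 and 0.55 in HeyA8.

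Related genes of the same pathways were counted by list. The list counts, here and in the paragraphs below, stand beside large shares of all genes called in either direction. These shares were 52.5% in HeyA8 sG5C, 57.9% in PC3 sG5C, 59.3% in HeyA8 sCAG and 50.5% in PC3 sCAG cells. Whether any list differs from all genes was not tested, so the counts describe the lists only. All 4 Argonautes, the proteins that carry the short RNA, were higher in HeyA8 sG5C cells (median log2 fold change 0.76), AGO2 by 2.20-fold and AGO4 by 1.74-fold. In PC3 sG5C cells 2 were higher and 1 lower (median 0.32), with AGO4 up 2.06-fold and AGO3 up 1.53-fold. AGO2 was not called there (log2 0.03, limma adjusted p = 0.680). After sCAG 2 rose and 2 fell in each line, with AGO1 down 1.42-fold in HeyA8 and 1.59-fold in PC3. With library totals the sCAG counts were 1 higher and 2 lower in HeyA8, and none higher and 2 lower in PC3.

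Of 7 poly(A)-binding proteins and their partners, 1 rose and 4 fell in PC3 sG5C cells (median log2 -0.57), 2 rose and 4 fell in HeyA8 sG5C cells (-0.26), 2 and 4 in PC3 sCAG cells (-0.13) and 3 and 4 in HeyA8 sCAG cells (-0.14). PABPC4, a cytoplasmic poly(A)-binding protein, fell in all 4: 8.91-fold in HeyA8 sCAG (limma adjusted p = 4.32e-27), 5.37-fold in PC3 sCAG (3.94e-21), 2.75-fold in PC3 sG5C (3.64e-18) and 2.05-fold in HeyA8 sG5C cells (1.67e-16). PABPC1, the main one, fell 1.97-fold in PC3 sG5C, 1.90-fold in HeyA8 sG5C and 1.26-fold in PC3 sCAG cells, and rose 1.16-fold in HeyA8 sCAG cells.

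Of the 11 other CCR4-NOT subunits, 5 rose and 3 fell in PC3 sG5C (median log2 0.09), 6 and 2 in HeyA8 sG5C (0.16), 6 and 3 in PC3 sCAG (0.14) and 3 and 5 in HeyA8 sCAG cells (-0.10). CNOT3 fell 1.58-fold in PC3 sG5C, 1.74-fold in HeyA8 sG5C and 1.40-fold in HeyA8 sCAG cells and rose slightly in PC3 sCAG cells (log2 0.14). The catalytic subunit gene CNOT6L fell 2.08-fold in HeyA8 sCAG cells and by 0.17 (log2) in PC3 sCAG cells, rose 1.16-fold in HeyA8 sG5C cells and was not called in PC3 sG5C cells (log2 0.06). Of 8 other deadenylation factors, 5 rose and 1 fell in PC3 sG5C (0.45), 3 and 5 in HeyA8 sG5C (-0.39), 5 and 1 in PC3 sCAG (0.23) and 5 and 3 in HeyA8 sCAG cells (0.27). TOB1, an adaptor of CCR4-NOT with antiproliferative activity, rose 2.62-fold in PC3 sG5C, 1.59-fold in PC3 sCAG and 3.58-fold in HeyA8 sCAG cells, and fell 1.42-fold in HeyA8 sG5C cells. PAN2, a deadenylase, fell 1.58-fold in PC3 sG5C, 1.55-fold in HeyA8 sG5C and 2.40-fold in HeyA8 sCAG cells, and was not called in PC3 sCAG cells (log2 0.03).

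Of 16 decapping cofactors and LSM proteins, 8 rose and 5 fell in PC3 sG5C (median log2 0.12), 2 and 6 in HeyA8 sG5C (-0.04), 8 and 4 in PC3 sCAG (0.10) and 4 and 6 in HeyA8 sCAG cells (0.08). PNRC1 rose 2.51-fold in PC3 sG5C, 1.81-fold in PC3 sCAG and 3.52-fold in HeyA8 sCAG cells, and was not called in HeyA8 sG5C cells (log2 -0.05). LSM2, of the LSM ring that binds decapping substrates, fell 2.24-fold in PC3 sG5C, 1.56-fold in HeyA8 sG5C, 1.27-fold in PC3 sCAG and 2.70-fold in HeyA8 sCAG cells. Of 17 exosome and SKI genes, which degrade RNA from the 3′ end, 2 rose and 9 fell in PC3 sG5C (-0.20), 6 and 3 in HeyA8 sG5C (-0.04), 4 and 7 in PC3 sCAG (0.05) and 1 and 10 in HeyA8 sCAG cells (-0.19), where EXOSC8 fell 2.47-fold. With library totals several of these medians changed sign, among them the exosome and SKI genes in PC3 sCAG (-0.12) and HeyA8 sG5C cells (0.10), the LSM list in HeyA8 sG5C (0.10), PC3 sCAG (-0.07) and HeyA8 sCAG cells (-0.05), and the CCR4-NOT list in PC3 sCAG cells (-0.04).

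Of 10 nonsense-mediated decay genes, 2 rose and 5 fell in PC3 sG5C (median log2 -0.22), none rose and 6 fell in HeyA8 sG5C (-0.18), 6 rose and 1 fell in PC3 sCAG (0.23) and 6 rose and 3 fell in HeyA8 sCAG cells (0.16). With library totals 2 rose and 2 fell in HeyA8 sG5C cells. Of 10 mRNA-binding adaptors of decay, 6 rose and 2 fell in PC3 sG5C (0.22), 5 and 2 in HeyA8 sG5C (0.13), 8 and none in PC3 sCAG (0.22) and 4 and 3 in HeyA8 sCAG cells (0.06; -0.06 with library totals). KHSRP fell 3.11-fold in PC3 sG5C and 3.06-fold in HeyA8 sG5C cells, whereas RC3H2 rose 1.69-fold and 1.73-fold in these. ZFP36, which binds AU-rich elements, rose 2.64-fold in PC3 sCAG, 1.46-fold in PC3 sG5C and 1.43-fold in HeyA8 sCAG cells. It was not called in HeyA8 sG5C cells (log2 0.03).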

How the data were processed

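Total RNA of 18 libraries was measured, made with the miRNeasy kit, DNase digestion and a TruSeq total RNA kit, per the labels' protocols. The submitters' processing notes name TopHat, Bowtie2, HTSeq, DESeq2 and hg38, with versions not given in the sources used here. The authors deposited 4 tables of 58395 genes and 6 libraries each, whose values are a signal: gene counts divided by a size factor per library. As each value was a whole multiple of 1 step (100.0% within 1e-06), whole reads were recovered. Between replicates, chi-square over its degrees of freedom was 3.29 to 7.26, above counting noise.

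Comparisons with sNT8 used limma 3.58.1 (trend, robust; pseudocount 1; filterByExpr with a count minimum of 10). All fold changes are on the log2(value + 1) scale there, and edgeR 4.0.16 (TMM, quasi-likelihood) on 9 or 18 libraries gave the other comparisons. For edgeR the SE was derived from the test, as the absolute log2 fold change divided by the square root of its F statistic. DESeq2 1.42.0, run in R 4.3.3, was an alternative, as were library totals, other filters and pseudocounts, a replicate block and leaving out each library. RPKM used the union of exons of GENCODE 29. The scripts were tested on simulated data. Named were all 10 genes, and of each list genes among the 2 with the smallest p per comparison with sNT8; values of some of these genes in their other comparisons were added after being seen. The genes and lists were chosen with earlier results of these data known. Some results are not reported here.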

Additional observations from a re-analysis of the deposited data

Results flagged for a closer look

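The effect of sCAG differed between the lines, by edgeR's test of the difference, at 8 of the 10 genes, where 37.1% of 27105 genes were called. The differences (PC3 minus HeyA8, log2) were 1.93 for XRN1, 0.55 for DCP1B, 0.51 for DCP1A, 0.44 for CNOT1, -0.20 for TNRC6A, -0.24 for DCP2, -0.25 for DDX6 and -0.67 for TNRC6B. XRN1 and TNRC6B had called effects of opposite sign in the lines. So did DDX6 and CNOT1, but the call of DDX6 in HeyA8 and that of CNOT1 in PC3 were lost under several alternatives, and with library totals these values were -0.016 and -0.052, of the same sign as in the other line. For sG5C the effect differed at 4 genes, where 32.8% of genes were called: 0.71 for TNRC6C, 0.29 for XRN1, 0.25 for CNOT1 and -0.44 for DCP2. With library totals the calls of XRN1 (0.08, adjusted p = 0.563) and CNOT1 (0.04, adjusted p = 0.598) by edgeR were lost. TNRC6C and DCP2 rose in both lines after sG5C, so those differences are in size. The library names of PC3 carry 2 prefixes, whereas the column names of both lines share the same prefix. Whether the lines were prepared separately is not given and was not tested. Groups of 3 libraries are too small to test a single library as an outlier.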

How the results depend on the processing

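Of 90 results for single genes (10 genes, 9 comparisons), 61 kept their call, and where called their direction, under every alternative. Over 1530 alternatives, 42 lost a call, 36 gained one, and 8 changed the sign of a value called in either fit; in the other 1444 the call held, and sign changes between uncalled values were not counted. All 8 came from scaling by library totals: DDX6 after sCAG in HeyA8 (-0.016), XRN1 (0.0065) and CNOT1 (0.0039) after sG5C in HeyA8, CNOT1 after sCAG in PC3 (-0.052) and in sCAG against sG5C in PC3 (-0.10), and TNRC6B (0.18), DCP1A (0.18) and EDC4 (0.16) in PC3 sNT8 against HeyA8 sNT8. That scaling called 10 genes, against 5, in the last comparison, and it moved the higher share of all calls to 60.6%, against 46.8%, in HeyA8 sG5C, to 39.2%, against 49.4%, in HeyA8 sCAG to 34.1%, against 54.3%, in PC3 sCAG, to 33.7%, against 48.8%, in HeyA8 sCAG against sG5C, to 33%, against 55.7%, for the difference in sG5C effect and to 64.6%, against 54.1%, between the sNT8 groups. Over all genes, edgeR on recovered reads called 13064 in HeyA8 sCAG, 11945 in HeyA8 sG5C, 11609 in PC3 sCAG and 13772 in PC3 sG5C, where limma called 13041, 11735, 11689 and 13737. For the 64 results of list genes with the smallest p, 896 alternatives changed no call. Whether same-lettered libraries belong together is not given. Their deviations correlated by -0.036 to 0.13 and the correlations were not all over 0.1 in any comparison, although all 6 libraries matched their own letter best in 3 of 4 comparisons, and 3 of 6 in HeyA8 sG5C. With a replicate block, 8 genes were called, against 10, in HeyA8 sG5C (XRN1 and CNOT1 were lost, with limma adjusted p = 0.0763 and 0.0758), 8 against 7 in PC3 sG5C (XRN1 gained), 5 against 4 for the difference in sG5C effect (TNRC6A gained), and the counts of the other 6 comparisons did not change. At this depth differences near 0.1 (log2) were at the edge of the calls.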

Other observations

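The nearest tested protein-coding neighbours of DCP2 and XRN1 were looked up after the values of both genes were seen. None was called higher where DCP2 rose after sG5C or where XRN1 rose after sCAG in PC3. Any link between the neighbours and these rises was not tested. MCC, 1129 bases beyond DCP2, had a log2 fold change of -0.31 ± 0.06 (SE; limma adjusted p = 3.94e-05) in HeyA8 sG5C cells, where DCP2 rose by 2.48, and 0.23 ± 0.13 (adjusted p = 0.139) in PC3 sG5C cells. REEP5, on the other side, was -0.12 (adjusted p = 0.0753) in HeyA8 and 0.13 (adjusted p = 0.0635) in PC3. ATR, 1173 bases from XRN1, fell by 0.26 ± 0.05 (limma adjusted p = 8.03e-05) in PC3 sCAG cells, where XRN1 rose by 1.61, and GK5 was -0.13 (adjusted p = 0.0786).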
